A study of Mus musculus with 6 samples.

Results

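Chromatin binding of CDK6 at 42 genes of mitosis and the spindle checkpoint was examined. The genes were listed by their function, out of 22028 protein-coding genes of the mouse annotation. They comprise the mitotic entry switch (10 genes), the mitotic kinases with the chromosomal passenger complex (7), the spindle checkpoint (5), the kinetochore (6), motors and topoisomerase (4), the anaphase machinery (4) and the transcription regulators of the programme (6). A promoter began 2000 bp before and ended 200 bp after any GENCODE vM21 transcript start of a gene, and a peak was counted for the gene when it overlapped that window by at least 1 bp.

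The data were ChIP-seq peak lists from mouse pre/pro B cell lines that were transformed with BCR-ABL(p185) and lacked endogenous Cdk6 (Cdk6-/-). Into these cells HA-tagged CDK6 had been introduced, either as the wildtype protein (CDK6-WT, 2 libraries) or as the kinase inactive mutant (CDK6-K43M, 2 libraries), and the tag was immunoprecipitated. Both groups thus shared the transformation, the loss of Cdk6, the tag and overexpression. The lists measure chromatin association of the overexpressed tagged protein and hold no measure of its amount or of gene expression. The sources do not say that replicates came from separate cultures, so p-values measure only the spread between these libraries, which may be technical.

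Mitotic entry is driven by cyclin B with CDK1, while the checkpoint holds the anaphase-promoting complex in check until every kinetochore is attached to the spindle. Many of these genes are expressed late in the cell cycle and are textbook targets of the MuvB core, which pairs with p130 and E2F4 (the DREAM complex) to repress them and with B-MYB and FOXM1 to activate them. Its LIN54 subunit recognises a short promoter element, the cell cycle genes homology region (CHR), which often lies near CCAAT boxes bound by NF-Y.

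Each of the 42 genes had a promoter peak in at least 2 of the 4 lists, whereas 48.2% of protein-coding genes had none in any list. A promoter peak was found for 41 of 42 in CDK6-WT replicate 1, 34 in CDK6-WT replicate 2, 42 in CDK6-K43M replicate 1 and 33 in CDK6-K43M replicate 2. Among all protein-coding genes the shares were 47.0%, 40.1%, 48.5% and 39.4% in the same order. Most of these genes start in CpG-rich sequence, 36 of 42 against 47.2% of all genes. This means a CpG observed to expected ratio of at least 0.6 within 500 bp of 1 representative start per gene. Among protein-coding genes with such a start the shares with a promoter peak were 75.7%, 64.6%, 77.3% and 62.9%, closer to the shares of the mitotic genes. The number of mitotic genes with a peak was 37.5 ± 4.95 for CDK6-WT and 37.5 ± 6.36 for CDK6-K43M (SD, n = 2), a difference of 0 (exact two-sided permutation test, p = 1, with 0.33 the smallest p that 2 against 2 libraries allow). Within replicate 1 the mutant had 1 gene more and within replicate 2 it had 1 fewer.

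**Figure D1:**
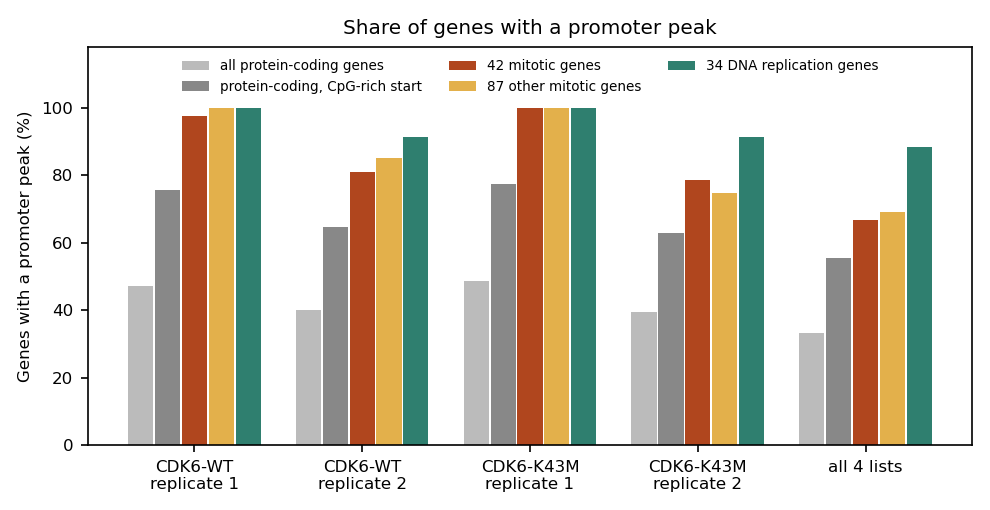
Share of genes (y axis, %) with a promoter peak in each of the 4 libraries and in all 4 lists, for all protein-coding genes, those with a CpG-rich start, and the lists of 42 mitotic, 87 other mitotic and 34 DNA replication genes. The 42 mitotic genes lie above both gene backgrounds in every library, and both replicate 2 libraries hold fewer of them than both replicate 1 libraries.

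In 28 of 42 genes a peak was present in all 4 lists (33.2% of protein-coding genes, 55.5% of those with a CpG-rich start), and in 10 more it was present in exactly 3 (8.13% and 12.4%). A promoter region bound by both variants, meaning a merged interval with a peak in at least 3 of the 4 lists, was found at 38 of 42 genes (41.3% and 68.0%). No gene had peaks in both CDK6-WT lists and neither CDK6-K43M list (0.0817% of protein-coding genes), and none had the opposite pattern (0.241%). Regions unique to CDK6-WT or to CDK6-K43M were likewise absent from these promoters, where 0.222% and 0.713% of protein-coding genes carried one. Ccnb1, Pttg1 and Lin52 (3 of 42) had peaks in the 2 lists numbered replicate 1 but not in those numbered replicate 2 (5.67% of protein-coding genes), and the reverse was seen for 0 of 42 (1.28%).

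The libraries differed by replicate number more than by variant, which touches every level given here. The 4 lists hold 34729 to 39797 peaks. Whole fragments at each summit were recovered from the fold enrichment and −log10 p, and the median peak rested on 20 and 23 fragments in the replicate 1 libraries against 18 and 15 in the replicate 2 libraries. The weakest listed peaks rested on 7 to 9 fragments, so a promoter without a peak may lie just below that depth. Binding strength is given as the percentile of a peak's −log10 q within its own list, with 100 the strongest peak. Values below are those of the strongest promoter peak of a gene, in the order CDK6-WT replicate 1, CDK6-WT replicate 2, CDK6-K43M replicate 1 and CDK6-K43M replicate 2. The strongest peak can be a different one in different lists. In 6 of the 28 genes with a peak in all 4 lists its summits spanned more than 500 bp.

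**Figure D2:**
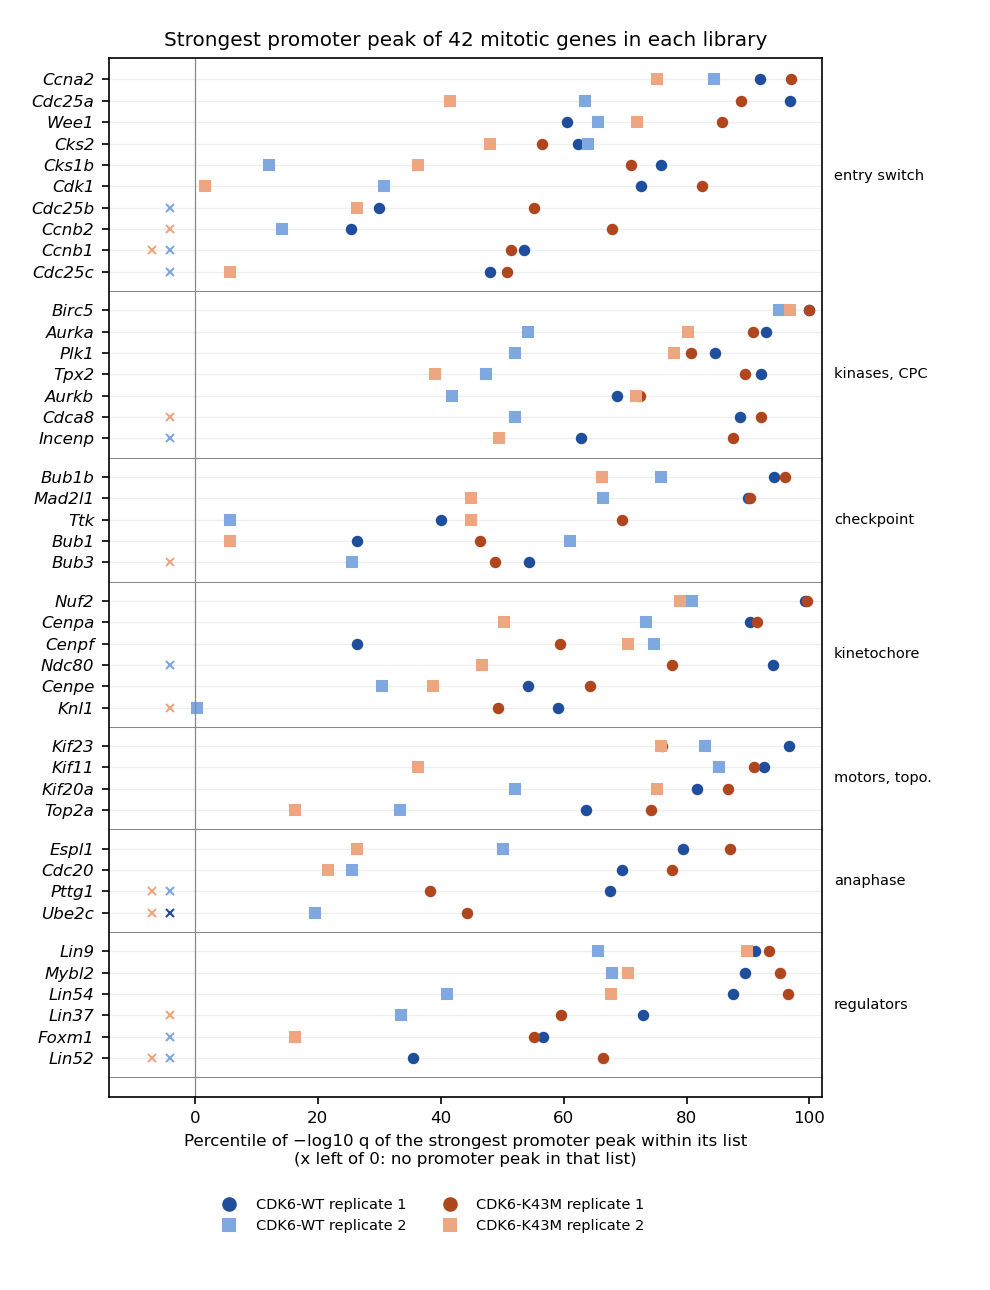
Percentile of −log10 q of the strongest promoter peak (x axis) for each of the 42 genes (y axis, grouped by role) in the 4 libraries, with circles for replicate 1, squares for replicate 2, blue for CDK6-WT and orange for CDK6-K43M. Crosses left of 0 mark lists without a promoter peak. Circles lie to the right of squares for most genes, while blue and orange are mixed.

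By the mean over the 4 lists, Ccna2, which encodes cyclin A2, ranked first among the genes of the entry switch, with percentiles of 91.9, 84.5, 97.1 and 75.1. Cdc25a, a phosphatase that activates CDKs, stood at 96.8, 63.4, 88.8 and 41.5. For both genes the replicate 1 libraries were the highest, and the variants overlapped. Wee1, the kinase that opposes CDC25 by inhibitory phosphorylation of CDK1, stood at 60.6, 65.6, 85.7 and 72.0. Here the 2 CDK6-K43M values lay above the 2 CDK6-WT values.

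Cdk1, the kinase of mitotic entry, stood at percentiles of 72.6, 30.8, 82.5 and 1.59. Its summits held 31, 20, 44 and 15 fragments, with exact 95% Poisson intervals of 21.1 to 44.0 and 8.40 to 24.7 for the first and the last, which cover counting error only. The peak was therefore present in every list and near the bottom of the CDK6-K43M replicate 2 list. Its CDK-binding subunits Cks1b and Cks2 reached 75.8, 11.98, 70.9 and 36.2, and 62.3, 63.9, 56.5 and 48.1, respectively. Cks1b shares its promoter with the divergent gene Shc1, whose start lies 60 bp away, so that the peak cannot be assigned to one of the pair.

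The B-type cyclins and the other CDC25 phosphatases each lacked a peak in at least 1 list. Ccnb1, cyclin B1, had peaks at percentiles of 53.5 in CDK6-WT replicate 1 and 51.5 in CDK6-K43M replicate 1, resting on 19 and 22 fragments, and none in the replicate 2 libraries. Ccnb2, cyclin B2, was listed at 25.3, 14.2 and 67.9 and was missing from CDK6-K43M replicate 2. Cdc25b was listed at 30.03, 55.2 and 26.4 and Cdc25c at 47.97, 50.8 and 5.63, and both were missing from CDK6-WT replicate 2. The Cdc25b values belong to different peaks, with summits at −10, −1337 and −370 bp from the nearest of its 7 starts. The representative start of Cdc25b lies 333 bp from that of the divergent gene Spef1.

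The promoters of the cyclin B and CDK1 genes are shown because each carries 2 closely spaced CCAAT boxes. Each stretch is upstream sequence that no annotated exon touches, written 5′ to 3′ on the strand of the gene from the RefSeq promoter table (GRCm38.p6, the assembly named mm10), with CHR, CCAAT and E2F letters in capitals on either strand. The CHR letters searched were TTTGAA and TTCGAA, the CCAAT box was CCAAT, and the E2F letters were TTTCCCGC, TTTGGCGC, TTTGCCGC and TTTCGCGC. The stretches lie at chr13:100786571-100786700, minus strand for Ccnb1, at chr9:70421555-70421684, minus strand for Ccnb2 and at chr10:69352939-69353068, minus strand for Cdk1.
Ccnb1: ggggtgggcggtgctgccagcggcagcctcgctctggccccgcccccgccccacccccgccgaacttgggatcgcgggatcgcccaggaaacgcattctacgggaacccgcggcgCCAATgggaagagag
Ccnb2: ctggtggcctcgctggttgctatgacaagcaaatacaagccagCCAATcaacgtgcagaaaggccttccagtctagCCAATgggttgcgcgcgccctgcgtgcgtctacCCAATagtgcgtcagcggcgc
Cdk1: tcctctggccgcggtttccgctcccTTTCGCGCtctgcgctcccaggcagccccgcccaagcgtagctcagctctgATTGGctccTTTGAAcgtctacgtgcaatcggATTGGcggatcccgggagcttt

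The Ccnb1 stretch ends 85 bp before the RefSeq start and holds 1 CCAAT box, with a second one nearer to the start. Its strongest summit lay at −256 bp from that start. Ccnb2 carries 3 CCAAT boxes directly before its start, and its strongest summit lay at position 3. In Cdk1 a CHR stands between 2 CCAAT boxes, and the strongest summit at −131 coincides with the start of the E2F letters.

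All 7 genes of the kinase and passenger group had a region bound by both variants. Birc5, which encodes survivin of the passenger complex, carried the strongest peaks of all 42 genes at percentiles of 99.99, 95.03, 99.98 and 96.8. The summits held 103, 49, 125 and 40 fragments, with a Poisson interval of 84.1 to 125 for the first. Their fold enrichment over local background, with 1 added to both terms of the ratio, was 33.6, 9.21, 25.6 and 13.8. Both replicate 1 libraries exceeded both replicate 2 libraries, and the variants overlapped. Its upstream stretch at chr11:117849107-117849236, plus strand is shown for contrast, because it holds none of the searched letters, although a CHR lies 68 bp from the summit.
Birc5: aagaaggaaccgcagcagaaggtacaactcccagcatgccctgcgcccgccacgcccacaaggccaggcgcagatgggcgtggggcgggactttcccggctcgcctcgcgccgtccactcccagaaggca

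Aurka, the centrosomal Aurora kinase, stood at percentiles of 93.0, 54.3, 90.9 and 80.2, and its 4 summits fell within 9 bp of each other. That position lies between −386 and −377 bp from the nearest Aurka start. The divergent gene Cstf1 begins 175 bp from Aurka, so that the peak cannot be assigned to one of the pair. Tpx2, which targets and activates Aurora A, reached 92.2, 47.3, 89.5 and 39.1. Plk1, the Polo-like kinase of mitotic entry and exit, reached 84.7, 52.1, 80.8 and 78.0. Aurkb, the catalytic subunit of the passenger complex, reached 68.7, 41.9, 72.4 and 71.7, with the CDK6-WT summits at −1742 and −1501 bp from the start and the CDK6-K43M summits at −59 and 68 bp. These are the strongest of several peaks, and a region over the Aurkb start was present in all 4 lists. The scaffold Incenp stood at 62.8, 87.5 and 49.5 and was missing from CDK6-WT replicate 2, while Cdca8, borealin, stood at 88.7, 52.1 and 92.2 and was missing from CDK6-K43M replicate 2. The divergent gene 9930104L06Rik begins 131 bp from Cdca8, so that the peak cannot be assigned to one of the pair.

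In the spindle checkpoint Bub1b, the BUBR1 subunit of the inhibitor of the anaphase-promoting complex, was the strongest at percentiles of 94.3, 75.8, 96.0 and 66.2. Mad2l1, which encodes MAD2 of the same inhibitor, stood at 89.9, 66.4, 90.3 and 44.9. Both had higher values in replicate 1 of each variant. Ttk, the MPS1 kinase that starts checkpoint signalling, stood at 40.01, 5.63, 69.5 and 44.9, so that its CDK6-K43M values lay above its CDK6-WT values. The kinase Bub1 reached 26.4, 61.1, 46.3 and 5.63, with all 4 summits between −1200 and −917 bp from its nearest start. Bub3, the partner of both BUB kinases, was listed at 54.4, 25.5 and 48.8 and missed in CDK6-K43M replicate 2.

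By the mean over the 4 lists Nuf2, a kinetochore subunit of the microtubule-binding NDC80 complex, ranked second to Birc5, with percentiles of 99.4, 81.0, 99.7 and 78.9 and 58, 26, 77 and 20 fragments. The values were high in all libraries and higher in replicate 1. Ndc80, its partner, reached 94.1, 77.7 and 46.8 without a peak in CDK6-WT replicate 2. It was also the only one of the 42 genes with a region bound by both variants inside its body but outside the promoter window. The share of all protein-coding genes with such a region was not counted, so this count has no background. Cenpa, the centromeric histone H3 variant, stood at 90.3, 73.4, 91.5 and 50.3. Cenpf stood at 26.4, 74.7, 59.3 and 70.5 and the motor Cenpe at 54.2, 30.5, 64.3 and 38.7. The Cenpf values belong to different peaks, with summits at −197 and −67 bp in the replicate 1 libraries. In the replicate 2 libraries they lay at −1320 and −1272 bp. Knl1, the platform for the BUB proteins, had the weakest peak of all, at 0.298 with 10 fragments in CDK6-WT replicate 2, beside 59.0 and 49.4 in the replicate 1 libraries and no peak in CDK6-K43M replicate 2. The CpG observed to expected ratio around 1 representative start of Knl1 was the lowest of the 42 genes, 0.153. Knl1 has 4 annotated starts, so this ratio need not describe the sequence under its peaks. The upstream stretch of Nuf2 at chr1:169531465-169531594, minus strand likewise held none of the searched letters, with the strongest summit at position 1 of the RefSeq start.
Nuf2: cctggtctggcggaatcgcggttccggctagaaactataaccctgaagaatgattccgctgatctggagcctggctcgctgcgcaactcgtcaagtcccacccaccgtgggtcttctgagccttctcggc

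All 4 genes of the motor and topoisomerase group had a promoter peak in every list, although not always the same peak. Kif23, a kinesin of the central spindle, stood at percentiles of 96.7, 82.97, 76.1 and 75.9, with both CDK6-WT values above both CDK6-K43M values. These values do not compare the same site. The summit lay at −1426 bp in CDK6-K43M replicate 2, against −77, −28 and −106 bp in the other libraries. Kif11, the kinesin that separates the spindle poles, stood at 92.5, 85.3, 91.0 and 36.2, and Kif20a, a kinesin of cytokinesis, at 81.7, 52.1, 86.7 and 75.1. Brd8 starts 432 bp from Kif20a on the other strand. Top2a, the topoisomerase that untangles sister chromatids, was the weakest of the group at 63.7, 33.4, 74.2 and 16.2. Top2a had a separate peak in CDK6-K43M replicate 2, with its summit 819 bp downstream of the nearest start and 10 fragments. Its promoter at chr11:99024190-99024439, minus strand is printed because 4 CHR and 6 CCAAT boxes stand in it, and its strongest summit lay 27 bp downstream of the start.
Top2a: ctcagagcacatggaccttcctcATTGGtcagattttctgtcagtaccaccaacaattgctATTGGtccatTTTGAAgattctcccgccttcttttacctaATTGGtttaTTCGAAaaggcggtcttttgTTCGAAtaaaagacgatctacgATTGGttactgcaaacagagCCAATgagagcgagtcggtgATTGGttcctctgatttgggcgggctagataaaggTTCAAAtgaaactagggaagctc

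Of the 4 anaphase genes 2 had a region bound by both variants. Espl1, separase, reached percentiles of 79.4, 50.1, 87.1 and 26.4. Cdc20, the activator of the anaphase-promoting complex and target of the checkpoint, reached 69.6, 25.5, 77.7 and 21.7 with 23, 13, 31 and 12 fragments. In both genes replicate 1 exceeded replicate 2 and the variants overlapped. Pttg1, securin, was listed only in the replicate 1 libraries at 67.6 and 38.2. Ube2c, the ubiquitin-conjugating enzyme of the complex, was listed in CDK6-WT replicate 2 at 19.5 and in CDK6-K43M replicate 1 at 44.3, on 14 and 19 fragments. The Cdc20 promoter at chr4:118437353-118437482, minus strand is given as the compact form of the layout, with a CCAAT box upstream of a CHR that begins at position −18, and its strongest summit lay at −155.
Cdc20: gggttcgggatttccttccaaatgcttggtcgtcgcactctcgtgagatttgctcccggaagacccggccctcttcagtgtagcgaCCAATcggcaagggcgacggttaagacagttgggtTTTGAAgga

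Of the 6 regulators of the programme 3 had a promoter peak in all 4 lists (33.2% of protein-coding genes, 55.5% of those with a CpG-rich start). A region bound by both variants was found at 5 of them (41.3% and 68.0%). Lin9, a MuvB core subunit, stood at percentiles of 91.2, 65.7, 93.5 and 89.8, and Lin54, the CHR-binding subunit, at 87.6, 41.0, 96.5 and 67.7. Mybl2, which encodes B-MYB, stood at 89.6, 67.9, 95.1 and 70.5. For these 3 genes the values of the variants overlapped. Foxm1, the forkhead activator of mitotic genes, was listed at 56.6, 55.2 and 16.2 and missed in CDK6-WT replicate 2. Its start lies 56 bp from that of Rhno1, so that the peak cannot be assigned to one of the pair. The MuvB subunits Lin37 and Lin52 were listed at 72.9, 33.6 and 59.6 with no peak in CDK6-K43M replicate 2, and at 35.5 and 66.4 in the replicate 1 libraries alone. Lin52 starts 418 bp from Aldh6a1.

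Over the 28 genes with a peak in all 4 lists the median percentile was 86.1, 62.2, 86.9 and 58.3, beside 84.3, 63.4, 86.1 and 62.8 over all protein-coding genes with a peak in all 4 lists. Both sets were higher in replicate 1 than in replicate 2, and they differed from each other by less than the replicate numbers did. The medians were 74.2 ± 16.9 for CDK6-WT and 72.6 ± 20.3 for CDK6-K43M (SD, n = 2), a difference of −1.59 percentile points (exact permutation test, p = 1). The difference was 0.805 within replicate 1 and −3.99 within replicate 2. This direction turned under several alternatives.

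Fold enrichment was compared for the 16381 regions present in all 4 lists. At least 1 of them lay over the promoter of 27 of the 42 genes (Top2a was left out because its 4 peaks form no such region). Aurkb and Lin54 had 2 each, and the one with the higher mean percentile was taken, so that each gene counts once. Values were log2 fold enrichment centred on the median of each library and tested with limma. With this test 0 of 16381 regions (0.0%) passed an adjusted p of 0.05 between CDK6-K43M and CDK6-WT, 10 regions had an unadjusted p under 0.05, and none of the 27 mitotic regions was among either. The difference ranged from −0.66 for Kif23 to 0.59 for Aurkb on the log2 scale, with a median of 0.04. The median SE was 0.466, so that differences of this size could have gone undetected. In 5 genes both CDK6-K43M libraries lay above both CDK6-WT libraries (Aurkb, Kif20a, Lin9, Ttk and Wee1; 7.27% of all regions), and in 2 both lay below (Cks2 and Kif23; 8.06%).

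A separate limma fit with the variant and the replicate number as terms, chosen after the data were seen, was used to compare the replicate numbers. Its SE was 0.277 against a median of 0.466 above, so the counts of the fits cannot be set against each other. Of the 27 genes 12 differed between replicate 2 and replicate 1 in their region (39.2% of all regions), and all 12 were lower in replicate 2 (30.0% of regions over promoters were called lower). The 12 genes were Nuf2, Cdc25a, Cdk1, Birc5, Tpx2, Mad2l1, Cks1b, Mybl2, Espl1, Cdc20, Kif11 and Aurka, with log2 differences from −1.16 for Nuf2 (limma, SE 0.277) to −0.65 for Aurka. The median over the 27 was −0.58, beside −0.34 over all promoter regions and 0.30 over regions outside promoters. What distinguishes the replicate numbers is not given in the sources used here, and its part in the missing replicate 2 peaks of Ccnb1, Pttg1 and Lin52 was not tested.

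**Figure D3:**
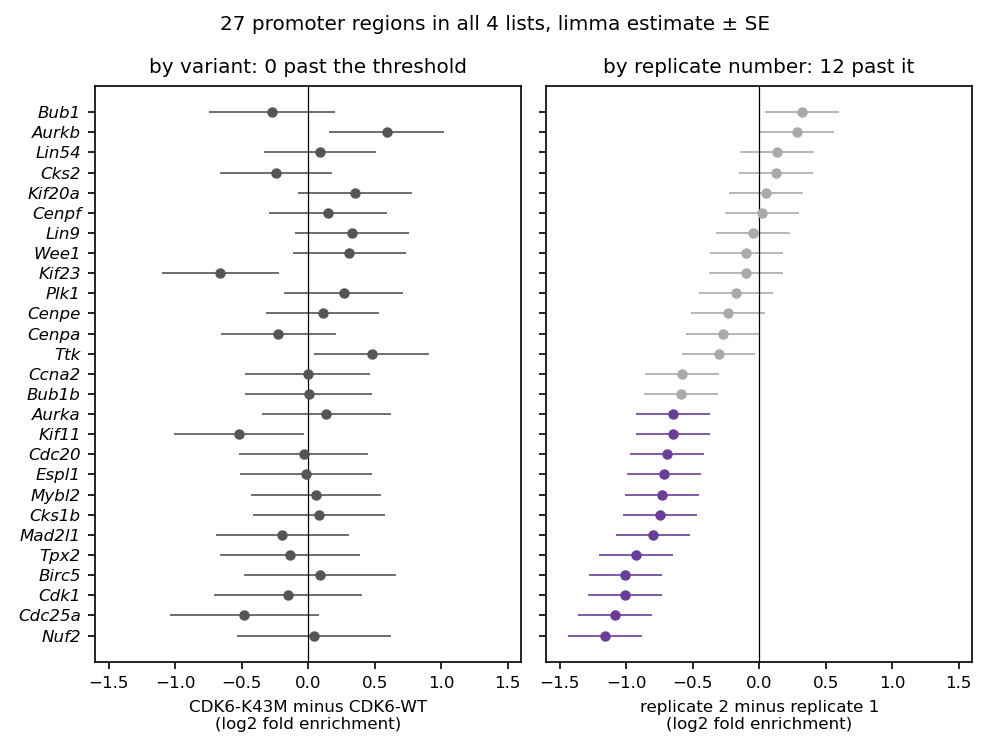
Log2 difference in fold enrichment (x axis) with its SE for the promoter regions of 27 genes (y axis, 1 region each), between the variants on the left and between the replicate numbers on the right, from separate fits. Differences between the variants lie on both sides of 0 and none passed the threshold. Of the differences between replicate numbers 12 (purple) passed it, all below 0. The SE differs between the fits, so these counts cannot be set against each other. In the fit with the replicate number, 0 of the 27 regions passed between the variants.

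Summit positions were compared with the nearest own start. The median distance was −85, −60.5, −66.5 and −99 bp, negative values being upstream, and 35 of 41, 26 of 34, 36 of 42 and 20 of 33 summits lay within 200 bp. Over all protein-coding genes the medians were −43, −46, −42 and −41 bp. Within 200 bp lay 85.4%, 76.5%, 85.7% and 60.6% of the summits of the mitotic genes and 78.3%, 71.2%, 77.6% and 69.4% of those of all protein-coding genes, so that in CDK6-K43M replicate 2 the mitotic share was the lower. For the 28 genes bound in every list the 4 summits of a gene spanned a median of 146 bp. The span was 9 bp for Aurka and 29 bp for Lin9 and reached 1853 bp for Aurkb and 1980 bp for Lin54, where different peaks of one promoter were the strongest in different lists.

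**Figure D4:**
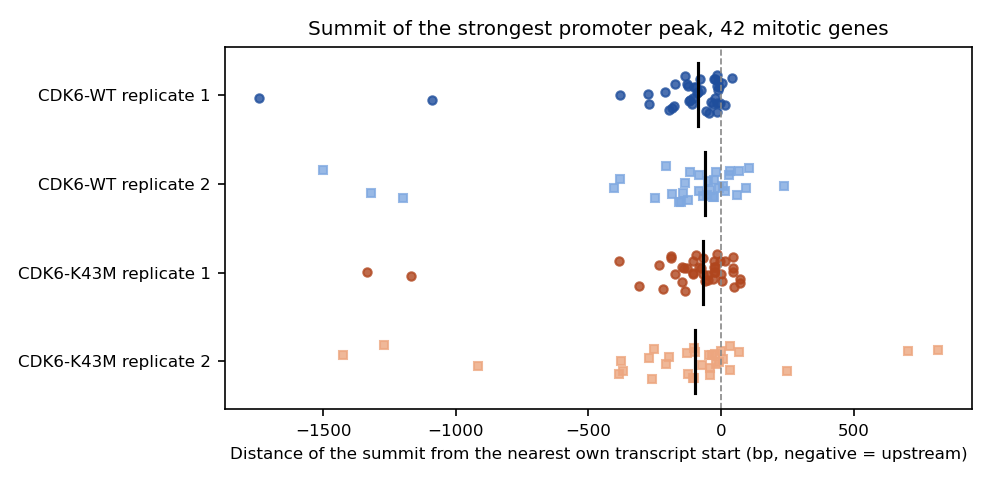
Distance (x axis, bp, negative upstream) of the strongest promoter summit from the nearest own transcript start for each of the 42 genes with a peak, by library (y axis), with black bars at the medians. Most summits lie within 200 bp of the start, and more of them lie upstream than downstream in every library.

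The promoters shared elements that the choice of genes did not use, although many of the genes are textbook CHR genes. Sequence from 250 bp before to 50 bp after 1 representative GENCODE start per gene was read from GRCm38.p6. A CHR was present in 28 of 42 genes (66.7%) against 17.3% of 21938 protein-coding genes. Within 50 bp of the start it was present in 27 of 42 (64.3%) against 4.34%, in 26 of 87 other mitotic genes (29.9%) and in 1 of 34 DNA replication genes (2.94%). A CCAAT box was present in 32 of 42 (76.2%) against 38.5%, and at least 2 boxes in 23 (54.8%) against 12.2%. Pairs of CCAAT boxes 31 to 35 bp apart occurred in 6 genes (14.3%) against 1.5%, namely Ccnb1, Ccnb2, Cdk1, Aurka, Cdca8 and Ube2c. E2F letters were found in 2 of 42 (4.76%) against 2.86%, and in 13 of 34 DNA replication genes (38.2%).

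**Figure D5:**
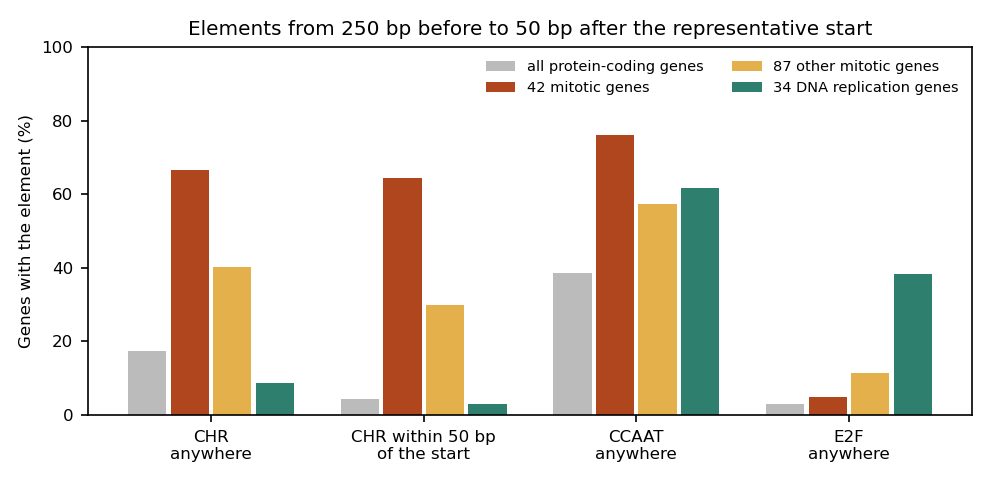
Share of genes (y axis, %) with each element (x axis) in the window around the representative start, for all protein-coding genes, 42 mitotic, 87 other mitotic and 34 DNA replication genes. The CHR near the start is most frequent in the mitotic list at 64.3%, and the E2F letters in the DNA replication list at 38.2%.

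By role, a CHR within 50 bp of the start was present in 6 of 10 entry genes, 5 of 7 kinase and passenger genes, 4 of 5 checkpoint genes, 4 of 6 kinetochore genes, 3 of 4 motor and topoisomerase genes, 3 of 4 anaphase genes and 2 of 6 regulators. The RefSeq promoter table held 33 of the 42 genes, of which 23 had a CHR in its window. Sites from genes of several roles are printed with 30 bases each and the CHR in capitals, to show how alike the position is while the flanks differ. They are the sites of Ccnb2 at chr9:70421533-70421562, Plk1 at chr7:122159453-122159482, Bub1 at chr2:127831828-127831857, Ttk at chr9:83834684-83834713, Cenpf at chr1:189688067-189688096, Kif23 at chr9:61946780-61946809, Kif11 at chr19:37376351-37376380 and Espl1 at chr15:102296254-102296283.
Ccnb2: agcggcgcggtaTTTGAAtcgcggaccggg
Plk1: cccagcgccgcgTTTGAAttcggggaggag
Bub1: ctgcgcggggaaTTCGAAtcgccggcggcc
Ttk: cagcggggaaatTTCAAAcgtgtttccgga
Cenpf: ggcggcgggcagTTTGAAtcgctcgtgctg
Kif23: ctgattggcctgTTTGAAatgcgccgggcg
Kif11: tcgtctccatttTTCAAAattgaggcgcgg
Espl1: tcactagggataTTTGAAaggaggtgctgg

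These sites begin at positions 5, 31, 15, 8, 3, 3, −19 and −27 from the RefSeq start. Some lay close to the strongest CDK6 summit, as in Ccnb2 with 4 bp and Plk1 with 39 bp between them, whereas in Bub1 and Cenpf the summit lay 1223 and 1325 bp away. The representative and RefSeq starts differ in some genes, so that Cenpa has a CHR near the RefSeq start alone and Nuf2 near the representative start alone.

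At the summits themselves the elements were also frequent. Within 100 bp of the strongest summit of the 38 genes with a region bound by both variants, a CHR was found in 16 (42.1%) and a CCAAT box in 19, against 7.93% and 23.8% of 9900 promoter regions bound by both. Both elements together occurred in 10 (26.3%) against 2.09%. The palindromic consensus of NRF-1 (10 letters) occurred in 0 of 38 against 1.93% and that of SP1 (GGGGCGGGG) in 3 (7.89%) against 12.5%. That of ETS factors (CCGGAAGT) occurred in 3 (7.89%), the same share as the 7.88% of all these regions. A match describes the sequence and does not show that the factor was bound. A promoter peak in all 4 lists was found for 19 of 28 genes with a CHR in the start window and 9 of 14 without. It was found for 2 of 6 genes with CCAAT boxes 31 to 35 bp apart and 26 of 36 without, and neither split was tested.

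The related lists showed how far these values are shared. Of 87 other mitotic genes (condensin, cohesin, further kinetochore, checkpoint, anaphase-promoting complex, spindle and kinase genes) 60 had a promoter peak in all 4 lists and 79 a region bound by both variants. All 10 cohesin genes were bound in all 4 lists, against 11 of 21 spindle and cytokinesis genes. Of 34 DNA replication genes 30 were bound in all 4 lists and 32 had a region bound by both. The share of the 42 mitotic genes in all 4 lists, 66.7%, was thus near that of the other mitotic genes at 69.0% and below that of the replication genes at 88.2%, and these differences were not tested.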

How the data were processed

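Chromatin immunoprecipitation against the HA tag was analysed from 4 deposited peak lists. According to the sources, the authors crosslinked with DSG and formaldehyde, checked reads with FastQC 0.11.5, trimmed with Trimmomatic 0.36, aligned with BWA 0.7.15 to mm10, filtered with bedtools and SAMtools 1.3.1 and called peaks per library with MACS2 2.1.0. The deposited columns are the fold enrichment (a ratio over local background), −log10 p, −log10 q, a whole-number score derived from the −log10 q, and other information, the summit offset. In the fold enrichment 1 is added to the summit height and to the local background. The lowest −log10 q in a list was 1.31 to 1.34, and the lists hold no read totals. The input libraries were not analysed here.

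Promoters came from GENCODE vM21 on GRCm38 (the authors used M13). Peaks overlapping by 1 bp were merged into 56748 regions. Fragments at summits were recovered from the fold and −log10 p, with 100% of peaks matching a whole number within 0.001 of −log10 p and at least 99.2% having 1 solution. The overlap, classification, recovery and limma steps were tested on simulated data. The limma simulation had no replicate effect and used changes far larger than the differences of the mitotic regions. It therefore does not measure what limma could detect in these libraries. limma 3.58.1 (R 4.3.3), Python 3.11.15, pandas 2.3.3, numpy 2.4.6, scipy 1.17.1 and pysam 0.24.0 were used, with Benjamini-Hochberg adjustment over all regions tested.

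The 42 genes, their roles and the other lists were chosen with earlier results of these data known. Every gene was counted. Genes were named in the text for their role, for a peak missing from a list or for the highest and lowest percentiles of their role. Alternatives were stricter limits on −log10 q (5 and 10), cutting lists to equal length or to 10000 peaks, other promoter windows and summits inside the window, merging within 500 bp, fold enrichment as the rank, other centrings, the replicate block, other motif windows and leaving out each library. The contrast of replicate numbers, from the fit with the replicate block, and the CpG-rich background were added after the data were seen. Samples were grouped by the variant in their titles.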

Additional observations from a re-analysis of the deposited data

How the results depend on the processing

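Of 89 alternative values for 9 results, 69 kept their direction and side of the threshold or stayed within a range set for that result. Of these, 12 concern the number of mitotic genes with a peak and could only be counted as kept. The main difference between the variants was 0 there, and its exact p cannot fall below 0.33. This difference ran from −4.5 without CDK6-K43M replicate 1 to 4.5 without CDK6-K43M replicate 2. The genes with a region bound by both variants numbered 38 and fell to 13 at a minimum −log10 q of 10 and to 11 among the top 10000 peaks per list. The genes with a peak in all 4 lists fell from 28 to 5 (8.41% of protein-coding genes) and 4 (5.98%) under the same settings. At a minimum −log10 q of 10 the libraries held 34, 9, 35 and 12 of the 42 genes, so most of the loss came from the replicate 2 libraries. The genes found in both replicate 1 lists alone rose from 3 to 13 at a minimum −log10 q of 5, 16 at 10 and 9 among the top 10000 peaks, and ranged from 3 to 8 when a library was left out (8 without CDK6-WT replicate 2 and 8 without CDK6-K43M replicate 2).

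The difference of −1.59 in median percentile between the variants turned to 2.47 at a minimum −log10 q of 5, 1.35 with lists of equal length and 1.15 with the summit inside the window, and ranged from −15.9 to 18.8 without single libraries (10.3 without CDK6-WT replicate 1 and 18.8 without CDK6-K43M replicate 2). The median log2 difference of the 27 regions ranged from −0.33 to 0.31 without single libraries, and was −0.21 without CDK6-WT replicate 2 and −0.33 without CDK6-K43M replicate 1. The lone library of a variant was then assumed to vary like the other variant. Every limma alternative without the block called 0 regions, with 5 to 161 at an unadjusted p under 0.05.

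With the replicate block, limma called 1 of 16381 regions between the variants and 839 had an unadjusted p under 0.05, of which 2 lay among the 27 mitotic regions (lowest adjusted p 0.84). Deviations of same-numbered libraries from their group means correlated (r = 0.759). With 2 libraries per variant the deviations mirror each other, so both pairs must give the same value and it counts once. It does not establish a pairing, and the numbers are not stated to mark a shared day or culture. The genes with a CHR or CCAAT box numbered 25 within 100 bp of the summit, 15 within 50 bp, 35 within 250 bp and 33 in the start window. The cause of these changes was not tested. The weakest listed peaks rest on 7 to 9 fragments, and weaker binding was not detectable in these lists.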
